A study of Mus musculus with 3 samples.

Results

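Macrophages and other myeloid cells of the mouse palatal shelves were described in droplet RNA counts of single cells. They were chosen by their RNA counts. A barcode, which stands for the content of 1 droplet, was taken as myeloid when it held at least 500 detected genes and a UMI of at least 3 of 8 genes. These genes were Tyrobp, Fcer1g, C1qa, C1qb, C1qc, Csf1r, Aif1 and Laptm5. A UMI is 1 counted RNA molecule. The rule kept 186 of 8107 barcodes with at least 500 genes (2.29%). It rests on measured counts, so the levels of these 8 genes are given as a description and support nothing. Palatal shelves grow out on both sides of the embryonic mouth and later join to form the palate. They came from wild-type C57BL/6J embryos, the youngest at E13.5 (E for embryonic day), the next at E14.5 and the oldest at E15.5. Each stage was 1 library made from 3 pooled embryos. Where 3 values stand in a row, they follow this order. The tissue was digested with TrypLE at 37 °C, strained, and the cells were fixed in methanol and stored frozen, per the labels. All groups shared this genotype and preparation. With 1 library per stage there was no replicate and no test, and every interval below is a 95% interval of counting error alone. Stage, library, litter and dissection cannot be told apart.

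Macrophages are phagocytes that take up dead cells and debris and break them down in lysosomes, and in embryos they settle in every tissue. Their survival and growth depend on the receptor Csf1r and its ligands Csf1 and Il34. Tyrobp and Fcer1g are short signalling adaptors that carry the signals of many activating and Fc receptors, the C1q genes encode the chains of the first complement component, and PU.1, the product of Spi1, is the transcription factor that sets up the myeloid programme. Tissue macrophages are often placed in perivascular types, marked by Mrc1, Lyve1 and F13a1, and in microglia, the macrophages of the brain. Monocytes, marked by Ccr2, reach tissues through the blood.

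The 3 libraries held 4236, 2079 and 3113 barcodes with 11472663, 5293977 and 8313677 UMIs, of which 3692, 1775 and 2640 barcodes had at least 500 genes. The myeloid barcodes numbered 25, 67 and 94. They summed to 105138, 336161 and 419876 UMIs, so that 1 UMI equals 9.51, 2.97 and 2.38 CPM (a gene's UMIs per 1000000 UMIs of the barcodes summed). Their median depth was 2634, 2441 and 2227.5 UMIs, against 1986, 1882 and 1993.5 UMIs in the other barcodes. The first and second libraries shared 3 barcode sequences, 1 of them myeloid, and each shared 1 with the third. The libraries also differed in makeup: barcodes with markers of neurons made up 50.6% of the E13.5 library, 7.04% and 6.67% of the later ones. The part of this makeup in the results was not tested.

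The label was checked against 24 macrophage genes outside the rule, among them Ctss, Mrc1, Adgre1, Ptprc and Mpeg1. At least 3 of them were found in 80%, 94.0% and 92.6% of the myeloid barcodes and in 0.164%, 1.64% and 1.30% of the others. At the threshold of the rule, 56 barcodes had exactly 3 rule genes and 78.6% of these had 3 of the 24 genes. Just outside it, 55 barcodes had 2 rule genes and 49.1% had 3 of the 24. The 37 barcodes with 4 rule genes reached 91.9%.

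Many myeloid barcodes also carried RNA of other cell types. Lists of 10 markers were used for each of 7 other classes (mesenchymal, chondrogenic, endothelial, epithelial, neuronal, glial and muscle). A myeloid barcode with a UMI of at least 3 markers of one such class is called mixed here, and the rest unmixed. There were 12 of 25 mixed barcodes at E13.5 (48.0%, 27.8 to 68.7), 24 of 67 a day later (35.8%, 24.5 to 48.5) and 24 of 94 at E15.5 (25.5%, 17.1 to 35.6). They were the deeper ones, with a median of 5434.5, 3982.5 and 3508 UMIs against 1846, 1878 and 1805.5 UMIs in the unmixed, and they held 72.1%, 68.6% and 54.6% of all myeloid UMIs. The call needs 3 detected markers, which a deeper barcode reaches more readily, so the definition itself favours deeper barcodes. The deepest single barcode of E14.5 (65518 UMIs) was mixed, and so was that of E15.5 (64141 UMIs). The markers that made barcodes mixed differed by stage. At E13.5 all 12 mixed barcodes had 3 or more neuronal markers, whereas 21 of 24 at E14.5 and 23 of 24 at E15.5 had 3 or more mesenchymal markers. Summed over the 10 markers, mesenchymal RNA came to 137, 133 and 205 CPM in the unmixed barcodes, 277, 5248 and 7319 CPM in the mixed and 796, 7779 and 8673 CPM in the other barcodes. Whether a mixed barcode held more than 1 cell was not tested. Stage levels of single genes are given for the 126 unmixed barcodes (13, 43 and 70) unless all 186 are named. In the unmixed barcodes, 1 UMI equals 34.1, 9.49 and 5.25 CPM, so the E13.5 values are coarse.

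**Figure D1:**
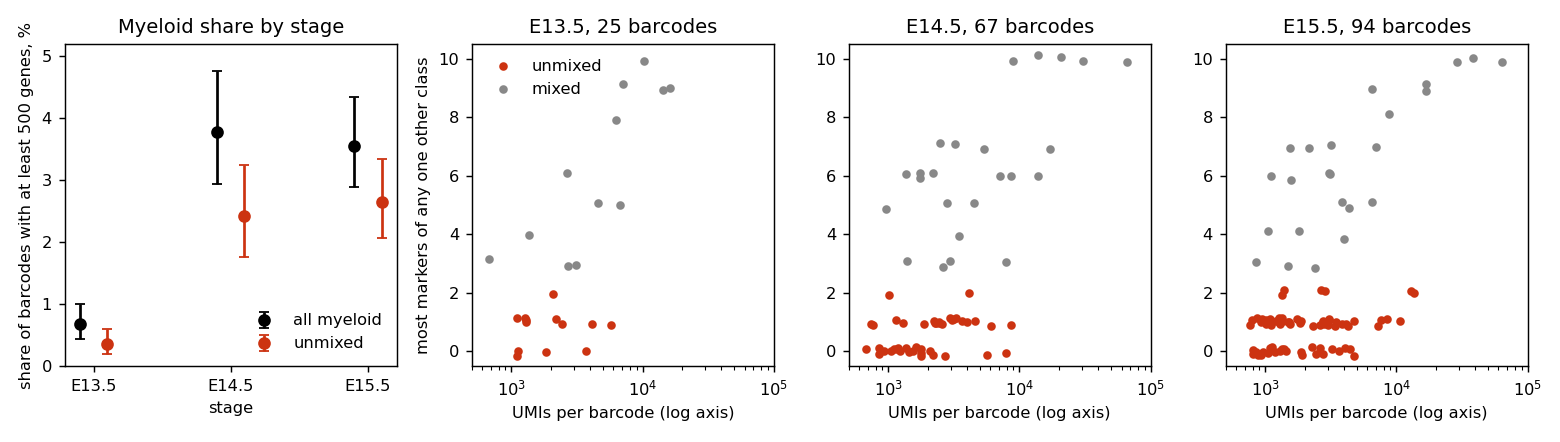
Left, share of barcodes with at least 500 genes that were myeloid (black) or unmixed myeloid (red) at each stage, in percent, with exact binomial 95% intervals. Right, 1 panel per stage with each myeloid barcode as a point, its UMIs on a log axis and the most markers it had of any one other class (0 to 10, points spread slightly); mixed barcodes (grey, 3 or more markers) reach far higher UMI counts, up to 65518, than the unmixed ones (red).

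The first comparison asked how large the myeloid share of the tissue was at each stage. Myeloid barcodes were 25 of 3692 at the first stage (0.677%, 0.439 to 0.998), 67 of 1775 at the next (3.77%, 2.94 to 4.77) and 94 of 2640 at the last (3.56%, 2.89 to 4.34). The unmixed barcodes alone gave 0.352% (0.188 to 0.601), 2.42% (1.76 to 3.25) and 2.65% (2.07 to 3.34). The intervals at E13.5 lay below those of both later stages, while those of E14.5 and E15.5 overlapped. This order depended on the denominator. Without the neuronal-marker barcodes, the share was 1.37% (0.888 to 2.02), 4.06% (3.16 to 5.13) and 3.81% (3.09 to 4.65). Against mesenchymal-marker barcodes alone, myeloid barcodes were 6.05% (3.96 to 8.81), 5.57% (4.34 to 7.02) and 5.01% (4.06 to 6.09) of the 2 classes together. There the 3 intervals overlapped, and E13.5 was not lower. For unmixed barcodes the same share was 3.24% (1.74 to 5.48), 3.65% (2.65 to 4.88) and 3.78% (2.95 to 4.75). These 2 denominators were chosen after the data had been seen.

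Among the rule genes, the 2 adaptors held the most UMIs over the 3 libraries, though C1qb and C1qc were above them in the unmixed barcodes of E13.5. Fcer1g (ENSMUSG00000058715, chromosome 1:171229572-171234365, minus strand) reached 1742 (1297 to 2289.9), 1746 (1503 to 2017) and 2021 (1824 to 2233) CPM in the unmixed barcodes. All gene positions are from GENCODE M21 on GRCm38, the build that UCSC calls mm10. Tyrobp (ENSMUSG00000030579, chromosome 7:30413760-30417585, plus strand) reached 1332 (947 to 1821), 1357 (1143 to 1598) and 2089 (1889 to 2305) CPM, with E15.5 the highest. The 3 C1q genes lie side by side on the minus strand of chromosome 4, C1qb at 136880129-136886187, C1qc at 136889804-136893065 and C1qa at 136895917-136898803, and all 3 were highest at E13.5 and lowest at E14.5, though the intervals of neighbouring stages overlapped for C1qa, and those of the 2 later stages for C1qc. C1qb was at 1947 (1474 to 2522), 901 (729 to 1102) and 1291 (1135 to 1463) CPM, C1qc at 1912 (1445 to 2483), 740.0 (585 to 924) and 1039 (899.7 to 1195) CPM and C1qa at 819.6 (525 to 1219), 503 (377 to 658) and 703 (589 to 833) CPM. Over all myeloid barcodes, C1qb was at 1208, 422 and 729 CPM, in the same order. Csf1r (chromosome 18:61100598-61132149), the receptor of Csf1 and Il34, was at 307 (141 to 583), 398 (287 to 539) and 373 (291 to 470.1) CPM, and its stages did not differ beyond their intervals. Aif1, an actin-binding protein also known as Iba1, was at 819.6 (525 to 1219), 512 (385 to 668) and 530.2 (432 to 644) CPM. Laptm5, a lysosomal membrane protein of blood cells, was at 512 (287 to 845), 929.7 (755 to 1133) and 698 (585 to 827) CPM.

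The next comparison set myeloid barcodes against the other barcodes of the same library, leaving out the 8 rule genes. It describes the barcodes that the rule chose and tests nothing, since every gene of a chosen barcode was used with it. A gene was called when its CPM, with 1 CPM added, differed at least 2-fold and reached 100 CPM on the higher side. Of the genes tested, 10.7%, 9.47% and 13.8% were called higher in myeloid barcodes, and 13.3%, 3.93% and 11.5% lower. Genes called lower numbered 346, 100 and 308, and without the deepest myeloid barcode of each library 100 became 339 and 308 became 513. In the unmixed barcodes the background was wider, at 30.2%, 27.0% and 25.9% higher and 26.8%, 25.5% and 26.5% lower. All macrophage genes outside the rule that reached 100 CPM were called higher: 11 of 11, 9 of 9 and 14 of 14, of 24 listed. Their median log2 ratio was 7.13, 5.42 and 5.40, beside a median of -0.04, -0.02 and -0.000737 over all genes tested. A gene of the list that was low everywhere did not reach 100 CPM, so these counts hold only the genes that were high.

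Over the 3 libraries together, and over all 186 members, the 15 largest ratios outside the rule ran from 68.5 to 523-fold. Ms4a7, a membrane protein of the Ms4a family, was at 339 CPM against 0.649, 523-fold (95% interval 312 to 946). Pf4, a chemokine stored in platelets and also made by tissue macrophages, was at 1259.9 CPM against 4.89, 258-fold (95% interval 212 to 316). Of 7 platelet and megakaryocyte genes, Gp9, Gp1bb, Gp6 and Tubb1 had 0 UMIs in myeloid barcodes, and Itga2b, Ppbp and Treml1 had 1 each. Cxcl2, a chemokine that attracts neutrophils, was at 711 CPM against 3.55, 200.3-fold (95% interval 159 to 255). Ctss, a lysosomal protease of antigen-presenting cells, was at 514 CPM against 2.86, 180.2-fold (95% interval 139 to 237). F13a1, the A chain of coagulation factor XIII, was at 606 CPM against 5.32, 114-fold (95% interval 93.4 to 139.8), and Mrc1, the mannose receptor CD206, at 602 CPM against 5.97, 101-fold (95% interval 83.4 to 122). Apoe, a lipid carrier, was at 1888 CPM against 26.6, 71.0-fold (95% interval 64.6 to 78.0). The other 8 were Ms4a6c (183-fold), Ifi207 (181-fold), Cd86, Casp4, Cd83, Cd52, Ly86 and Ptprc. These ratios pool libraries that differ in their share of myeloid barcodes, and their order did not hold within each library. By stage Ms4a7 was 1822, 390.1 and 308-fold higher, Pf4 111, 93.8 and 339-fold, Mrc1 446, 46.7 and 70.5-fold and Apoe 334, 27.5 and 51.6-fold. The smallest ratio of these 15 genes in any library was that of Apoe at E14.5. Cd86 and Cd83 are surface proteins of antigen-presenting cells, and Ptprc is CD45, the pan-leukocyte phosphatase. UMIs of these genes in the other barcodes were few but not absent, for example Pf4 in 1.21% and Apoe in 5.11% of them, at the median depths given above.

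**Figure D2:**
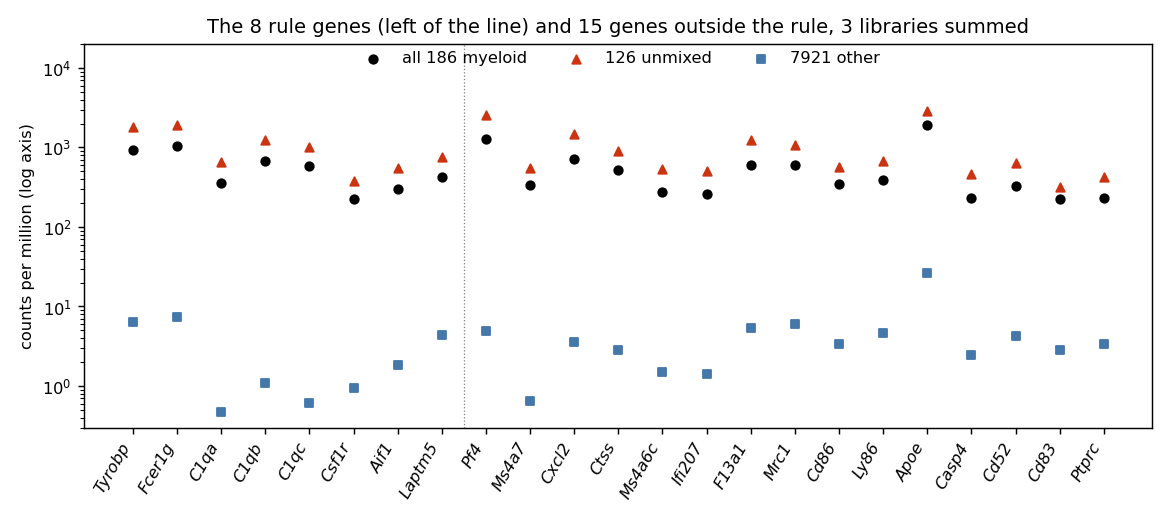
CPM on a log axis of the 8 rule genes (left of the dotted line) and of the 15 genes with the largest ratios outside the rule, summed over the 3 libraries, in all 186 myeloid barcodes (black), the 126 unmixed (red) and the 7921 other barcodes (blue). With the libraries pooled, every black point lies 68.5-fold or more above its blue point, the least being Ptprc.

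Promoters of 4 of these genes are printed because PU.1, whose gene Spi1 marks this lineage, is known to bind the letters GAGGAA, and the genes were high together. They were chosen among genes whose promoter holds these letters. The 250 bases before the RefSeq start (GRCm38.p6) are given 5′ to 3′ on the gene's strand, with GAGGAA or its reverse complement TTCCTC in capitals. They lie at chr5:90772185-90772434, plus strand (Pf4), chr13:37050245-37050494, minus strand (F13a1, the more upstream of 2 listed starts), chr3:95526536-95526785, plus strand (Ctss) and chr4:136886201-136886450, minus strand (C1qb).
Pf4: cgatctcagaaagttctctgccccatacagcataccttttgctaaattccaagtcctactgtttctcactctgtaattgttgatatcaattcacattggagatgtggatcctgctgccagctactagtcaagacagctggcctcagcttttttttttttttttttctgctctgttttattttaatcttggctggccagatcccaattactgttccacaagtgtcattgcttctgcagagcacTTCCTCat
F13a1: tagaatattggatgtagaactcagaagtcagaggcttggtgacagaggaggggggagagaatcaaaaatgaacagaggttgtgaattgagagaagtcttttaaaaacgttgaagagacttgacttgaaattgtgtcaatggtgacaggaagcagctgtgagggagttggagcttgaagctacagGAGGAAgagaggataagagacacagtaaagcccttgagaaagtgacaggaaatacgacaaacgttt
Ctss: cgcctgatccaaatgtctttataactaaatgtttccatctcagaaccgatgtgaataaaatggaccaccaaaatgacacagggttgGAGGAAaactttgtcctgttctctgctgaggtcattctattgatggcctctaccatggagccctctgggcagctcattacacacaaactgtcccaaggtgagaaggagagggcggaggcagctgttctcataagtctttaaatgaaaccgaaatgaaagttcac
C1qb: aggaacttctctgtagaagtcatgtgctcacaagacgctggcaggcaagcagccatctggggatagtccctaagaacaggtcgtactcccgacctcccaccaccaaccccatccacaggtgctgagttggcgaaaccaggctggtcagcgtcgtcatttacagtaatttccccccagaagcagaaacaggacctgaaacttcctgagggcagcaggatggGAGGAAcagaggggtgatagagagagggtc
The first base of the match lay 8 bases before the start in Pf4, 66 in F13a1, 164 in Ctss and 30 in C1qb. The promoter at the other F13a1 start and both of Ms4a7 had no match. Of the 8 rule genes, 5 were in the promoter table, 4 had a match on either strand and Fcer1g had none. Of the 24 macrophage genes, 20 were in it with 25 promoters, of which 11 had a match (44.0%). Among all 32851 promoters of the table the share was 23.3%. A match describes the letters and is no evidence of binding. Spi1 itself (ENSMUSG00000002111, chromosome 2:91082390-91115756, plus strand) was at 102 (21.1 to 299), 171 (101 to 269.9) and 142 (93.4 to 206) CPM in the unmixed barcodes and at 0.365, 1.90 and 2.56 CPM in the other barcodes.

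Among 12 myeloid transcription factors, 8 of 8 that were tested at E14.5 and 8 of 8 at E15.5 were called higher in unmixed myeloid than in other barcodes, beside 27.0% and 25.9% of all genes tested. Over all members 4 of 5 and 4 of 5 were called higher, beside 9.47% and 13.8% of all genes tested. Factors low in both groups did not reach 100 CPM and are in neither count. Over the 3 libraries Zeb2 held the most UMIs. It was at 854 (552 to 1260.3), 1565 (1336 to 1823) and 1454 (1288 to 1636) CPM, and was at 276, 544 and 639 CPM in the other barcodes. Runx1, which acts in blood cell formation, was at 273 (118 to 538), 911 (738 to 1112) and 1034 (895 to 1189) CPM, and Maf, a factor of resident macrophages, at 615 (364 to 971), 958 (780.5 to 1164) and 945 (812 to 1094) CPM. Cebpb, a factor of inflammatory myeloid genes, was at 205 (75.2 to 446), 559.7 (426 to 722) and 698 (585 to 827) CPM. Irf8 was at 137, 75.9 and 68.2 CPM, and Ikzf1, a factor of blood cells, at 68.3, 133 and 136 CPM.

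Many genes of digestion and uptake were higher in myeloid than in other barcodes. The 21 lysosomal genes summed to 5805, 8453 and 8756 CPM in unmixed myeloid barcodes and to 906, 1409 and 1549 CPM in the other barcodes. Of the lysosomal genes tested, 12 of 14, 16 of 18 and 15 of 17 were called higher in the unmixed barcodes and 0 lower, beside 30.2%, 27.0% and 25.9% of all genes tested that were called higher. Genes low in both groups did not reach 100 CPM and are not in these counts. The cathepsins Ctsb (649, 1423 and 1339 CPM) and Ctss (1127, 683 and 987 CPM), the asparaginyl protease Lgmn (341, 816 and 808 CPM) and the membrane protein Lamp1 (649, 882 and 824 CPM) held the most UMIs over the 3 libraries. Over the 3 libraries ferritin chains held the most UMIs of the lipid and iron list, though Apoe was above Ftl1 at E13.5. Fth1 was at 4200.4, 4506 and 4210.2 CPM and Ftl1 at 2732, 3358 and 3255 CPM, and Fth1 was at 783, 652 and 763 CPM in the other barcodes. Apoe stood at 3278 (2655 to 4003), 2580.5 (2283 to 2906) and 2935 (2696 to 3188) CPM, and Abca1, which exports cholesterol, at 239, 398 and 341 CPM. Of 17 genes of uptake, 7 of 7, 7 of 9 and 6 of 8 tested were called higher, against the same background, and the scavenger receptor Colec12 was called lower at the 2 later stages. Among receptors that take up dead cells and other cargo, Stab1 was at 205 (75.2 to 446), 787 (627 to 976) and 556 (456 to 673) CPM and the adaptor pair Elmo1 and Dock2 at 376, 863 and 756 CPM and 137, 636 and 535 CPM. Mertk, a receptor for dead cells, was at 239, 123 and 152 CPM, and Gas6, the protein that bridges it to dead cells, at 137, 218 and 236 CPM. Over all 186 barcodes, the scavenger receptor Marco had 0 UMIs, Cd163 had 2, Stab2 had 1 and Timd4 had 3.

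Genes of the perivascular type were carried by 110 of the 186 myeloid barcodes. At least 2 of 14 genes of that list were found in 13 of 25 (52%, 31.3 to 72.2), 42 of 67 (62.7%, 50.01 to 74.2) and 55 of 94 (58.5%, 47.9 to 68.6) of the myeloid barcodes, against 0.218, 0.995 and 0.903% of the other barcodes. In the unmixed barcodes these were 6 of 13, 26 of 43 and 40 of 70. With each barcode thinned to 1500 UMIs, which left 17, 48 and 59 myeloid barcodes and dropped 8, 19 and 35, the shares were 41.2, 47.9 and 54.2%. Their intervals overlapped between stages in each case. The list's level rested on 4 genes. Pf4 was at 683 (417 to 1055), 1973 (1714 to 2260.5) and 3208 (2958 to 3472) CPM, F13a1 at 376 (188 to 672), 1148 (953 to 1372) and 1402 (1239 to 1580.3) CPM, Mrc1 at 444 (236 to 759), 1101 (909 to 1320.0) and 1171 (1022 to 1335) CPM and Stab1 at the values above. Over all members Pf4 was at 304, 851 and 1827 CPM, F13a1 at 181, 452 and 836 CPM and Mrc1 at 285, 503 and 759.7 CPM, and each was in the same order as in the unmixed barcodes. Pf4 was uneven between barcodes: 1 unmixed barcode held 69 of 208 UMIs at E14.5 and 88 of 611 at E15.5, where 33 of 70 had any. Other classic markers of the type were rare: Lyve1 was at 34.1, 47.4 and 31.5 CPM, Folr2 at 102, 75.9 and 52.5 CPM, Cbr2 had 1 UMI, and Cd209f and Vsig4 had 0.

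Microglia genes were found in part in the same barcodes. At least 2 of 11 were present in 10 of 25 (40%, 21.1 to 61.3), 20 of 67 (29.9%, 19.3 to 42.3) and 33 of 94 (35.1%, 25.5 to 45.6) of the myeloid barcodes and in 1.83, 3.69 and 5.77% of the others. With each barcode thinned to 1500 UMIs, the myeloid shares were 17.6% (3 of 17), 8.33% (4 of 48) and 16.9% (10 of 59). The others then had 0.343, 0.957 and 1.37%. The myeloid share was lower at each stage after thinning, so it depended on depth. Of the 63 myeloid barcodes with 2 microglia genes before thinning, 46 (73.0%) also had 2 perivascular genes, as had 110 of all 186. These 46 were 41.8% of the 110 perivascular-list barcodes. The overlap is given without thinning only. Fcrls, an Fc receptor-like protein, was at 341 (164 to 628), 237 (153 to 350.1) and 357 (277 to 453) CPM and P2ry12, a nucleotide receptor, at 137, 37.9 and 84.0 CPM in the unmixed barcodes. Among the genes that define microglia, Sall1 and Siglech had 1 UMI each over all 186 barcodes and Tmem119 had 11. The E13.5 library, which held the most neuronal-marker barcodes, did not differ from E15.5 beyond the intervals in Fcrls or P2ry12.

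A smaller set carried monocyte genes. At least 2 of 8 monocyte genes were found in 0 of 25 (0%, 0 to 13.7), 14 of 67 (20.9%, 11.9 to 32.6) and 16 of 94 (17.0%, 10.1 to 26.2) of the myeloid barcodes, and in 0, 0.117 and 0.314% of the other barcodes. Ccr2, the receptor for the chemokine Ccl2, was at 68.3 (8.27 to 247), 237 (153 to 350.1) and 157 (106 to 225) CPM in the unmixed barcodes and Plac8 at 171 (55.4 to 398), 152 (86.8 to 247) and 99.7 (60.1 to 156) CPM, while Ly6c2 had 1 UMI and Chil3 had 0. The 2 lists were seldom met in 1 barcode: 7 of the 30 monocyte-list barcodes (23.3%) also passed for the perivascular list, and they were 6.36% of the 110 with the perivascular list.

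Unmixed barcodes with only one of these 2 lists differed in genes outside both, rule genes among them. There were 68 with the perivascular list (6, 25 and 37 by stage, 170835 UMIs) and 19 with the monocyte list (0, 9 and 10, 33644 UMIs). The groups were cut from counts, so their contrast is a description. Of 2715 genes tested, 18.2% were called higher with the perivascular list and 22.2% lower, where 100 CPM is 3 to 4 UMIs of the monocyte-list barcodes. Complement C1q genes, which the rule used, were higher with the perivascular list. C1qa had 156 UMIs there and 0 in the monocyte-list barcodes, which is at least 10.2-fold higher when the 0 is set to 3 UMIs over the group (the lower end of the exact 95% interval is 8.23). C1qb was at 1744 CPM (1552 to 1954; 54 of 68 barcodes) against 178 CPM (65.4 to 388; 5 of 19), and C1qc at 1475 CPM (1299 to 1669; 43 of 68 barcodes) against 29.7 CPM (0.753 to 166; 1 of 19). Csf1r, in contrast, was at 533 CPM (429 to 654; 44 of 68 barcodes) against 357 CPM (184 to 623; 6 of 19), with overlapping intervals. Ms4a7 had 158 UMIs against 0 (at least 10.4-fold), Fcrls 84 against 0 (at least 5.51-fold), Cd36, a fatty acid and scavenger receptor, 72 against 0 (at least 4.73-fold) and Gas6 70 against 0 (at least 4.60-fold). These bounds are against the same 3 UMIs, and the lower ends of the exact intervals are 8.34, 4.39, 3.75 and 3.64. Apoe was at 3963 CPM (3670.0 to 4273; 62 of 68 barcodes) against 951 CPM (651 to 1343; 13 of 19), and Maf at 1405 CPM (1233 to 1594; 55 of 68 barcodes) against 505 CPM (294 to 809; 9 of 19).

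Lyz2, Cebpb and S100a6 were higher in the monocyte-list barcodes. Lyz2, the lysozyme of monocytes and granulocytes, was at 2169.8 CPM (1701 to 2728; 17 of 19 barcodes) against 222 CPM (157 to 305; 19 of 68) with the perivascular list. Cebpb was at 2021 CPM (1569.5 to 2562) against 416 CPM (325 to 524). S100a6, a calcium-binding protein, was at 2081 CPM (1622 to 2629) against 193 CPM (133 to 271). Its relative S100a4 had 10 UMIs against 0, and Thbs1, thrombospondin, 19 UMIs in 10 barcodes against 1. Il1r2, the decoy receptor for interleukin 1, and the lectin Clec4d had 7 and 11 UMIs against 0 and 1. Stfa3 and Stfa1, stefins of granulocytes, had 8 and 18 UMIs against 0 and 2, and S100a8, a neutrophil and monocyte protein, 8 against 1, with 15 of the Stfa1 and 7 of the S100a8 UMIs in 1 barcode each. Of the 7 myeloid barcodes with 2 neutrophil genes, 4 also had 2 monocyte genes. Cd74, the chain that guides MHC class II, was at 892 CPM (602 to 1273) against 58.5 CPM (28.1 to 108), but its 30 UMIs came from 5 of 19 barcodes, and at E14.5 alone no monocyte-list barcode had it (log2 ratio of perivascular to monocyte 5.08). Fcer1g, which the rule used, was at 2259 CPM against 2312 CPM. The remaining 35 unmixed barcodes with neither list had a lower median depth, 1348 UMIs against 2234.5 with the perivascular list and 1496 with the monocyte list. In them C1qb was at 835 CPM and Lyz2 at 88.8 CPM. The genes of this contrast other than those of the ranked extremes were chosen after their values were seen.

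**Figure D3:**
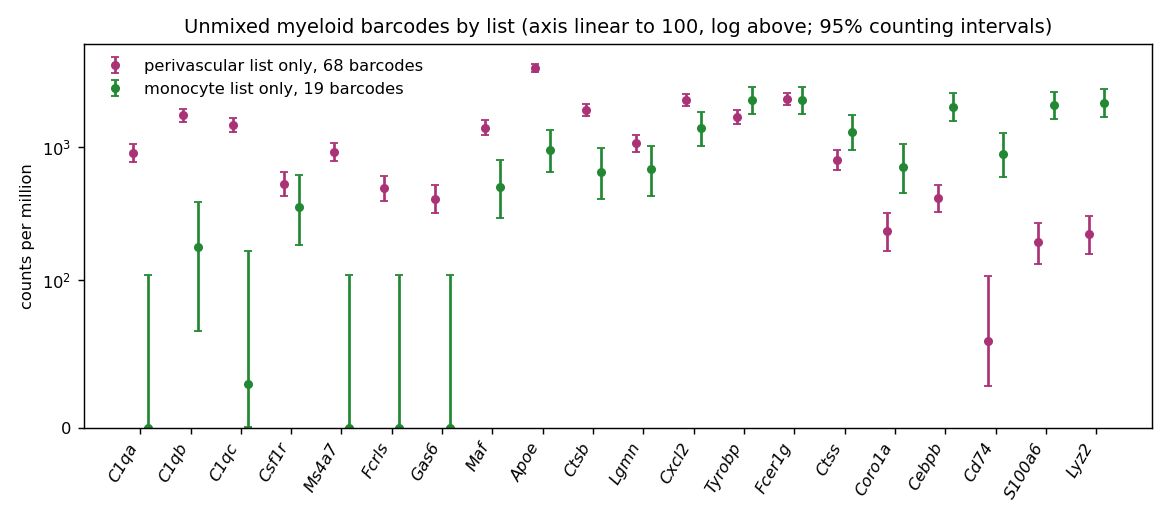
CPM of 20 genes, on an axis that is linear to 100 and logarithmic above, in unmixed myeloid barcodes with at least 2 genes of the perivascular list only (purple, 68 barcodes) or of the monocyte list only (green, 19 barcodes), with 95% Poisson intervals. C1q genes, Ms4a7, Fcrls, Gas6 and Apoe sit higher in purple, while Cebpb, Cd74, S100a6 and Lyz2 sit higher in green, and the intervals of Fcer1g and Csf1r overlap.

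Chemokines and stress genes were prominent and uneven. The 20 chemokine and cytokine genes summed to 5122, 4677 and 6699 CPM in unmixed myeloid and 12.9, 34.4 and 33.8 CPM in other barcodes, so a gene of the list could reach 100 CPM only on the myeloid side. Cxcl2 was at 2527 (1984 to 3172), 1404 (1187 to 1649) and 1365 (1204 to 1541) CPM, but 67 of its 74 UMIs at E13.5 were in 1 barcode. Ccl2, which attracts Ccr2-bearing monocytes, was at 205 (75.2 to 446), 294 (199.8 to 417) and 415 (328 to 517) CPM, and its close relative Ccl12 at 581 (338 to 929.5), 266 (177 to 384) and 341 (263 to 435) CPM. Il1b was at 102, 104 and 178 CPM, Tnf at 0, 94.9 and 47.2 CPM, Il10 had 3 UMIs in all, Il6 had 1 and Il1a had 0. For the 6 genes Cxcl2, Ccl2, Ccl3, Ccl4, Ccl7 and Ccl12 together, the 5 highest unmixed barcodes held 97.5%, 59.7% and 56.4% of the UMIs, and 6 of 13, 16 of 43 and 31 of 70 barcodes had none. Of 16 early response and stress genes, 10 of 14, 12 of 15 and 9 of 15 tested were called higher in unmixed myeloid than in other barcodes, beside 30.2%, 27.0% and 25.9% of all genes tested. Over all members the counts were 7 of 12, 6 of 12 and 7 of 15, beside 10.7%, 9.47% and 13.8% of all genes tested. Atf3, a stress-induced factor, was at 2595 (2045 to 3248), 522 (393 to 679) and 740.2 (623 to 873) CPM against 44.9, 30.8 and 53.1 CPM in the other barcodes, with 60 of 76 UMIs at E13.5 in 1 barcode. Zfp36, which destabilises cytokine mRNAs, was at 171, 550.3 and 514 CPM against 4.75, 25.5 and 34.5 CPM, and Hspa1a, a heat shock protein, at 137, 683 and 598 CPM against 4.29, 25.3 and 66.0 CPM. Of 10 interferon-response genes, Ifitm3 led with 512 (287 to 845), 484 (360.3 to 636) and 415 (328 to 517) CPM, and Ifit1 and Ifit2 had 0 UMIs.

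At least 2 genes of the mast cell, neutrophil, dendritic cell or lymphoid list were found in at most 5 myeloid barcodes of a library for each list. Mast cell genes (at least 2 of 9) were in 1 barcode of each library. The E13.5 barcode had 10 UMIs of Hdc, which makes histamine, 10 of the tryptase Tpsb2, 8 of the chymase Cma1 and 6 of the carboxypeptidase Cpa3 among 1291 UMIs. The E14.5 barcode had 45, 28, 36 and 21 of these among 8571 UMIs and was mixed. The E15.5 barcode had 35, 6, 42 and 33 among 2282. A further 0, 5 and 9 barcodes outside the rule also had 2 mast cell genes, so at the later stages more such barcodes lay outside the rule than inside it. Neutrophil genes (at least 2 of 12) were in 0, 3 and 4 myeloid barcodes and in 4, 8 and 9 others; S100a8 and S100a9 led, and Mpo, Elane, Cxcr2 and Retnlg had 0 UMIs in myeloid barcodes. At least 2 genes of antigen presentation and dendritic cells were in 2, 5 and 3 myeloid barcodes and in 4, 3 and 6 others. Cd74 and H2-Aa led in the myeloid barcodes, and Xcr1, Clec9a, Itgax and Ccr7 had 0 UMIs there. At least 2 lymphoid genes were in 1, 1 and 0 myeloid barcodes and in 1, 2 and 1 others, with 0 UMIs of Cd3e and Cd3d in myeloid barcodes.

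Osteoclast genes were found in a few barcodes of E14.5 and E15.5. Osteoclasts are bone-resorbing cells of the myeloid lineage that form when Tnfrsf11a (RANK) is bound by Tnfsf11 (RANKL). At least 2 of 12 osteoclast genes were found in 0 of 25 (0%, 0 to 13.7), 4 of 67 (5.97%, 1.65 to 14.6) and 11 of 94 (11.7%, 5.99 to 19.97) of the myeloid barcodes, and in 0.164, 1.46 and 2.00% of the other barcodes. The intervals overlapped. In the unmixed barcodes the counts were 0 of 13, 1 of 43 and 8 of 70. Tnfrsf11a was at 68.3 (8.27 to 247), 56.9 (20.9 to 124) and 184 (128 to 256) CPM in them, and Nfatc1, the master factor of osteoclasts, at 0 (0 to 126), 75.9 (32.8 to 149.5) and 147 (97.7 to 212) CPM. Ctsk, the protease that digests bone collagen, had 0, 0 and 45 UMIs, the latter in 4 barcodes. Other cells held it too, at 7.31, 29.96 and 40.8 CPM. The E15.5 barcode with the most osteoclast genes was unmixed and had 3 rule genes among 8422 UMIs. It held 24 UMIs of Ctsk, 7 of Tnfrsf11a, 6 each of the phosphatase Acp5, the proton pump subunit Atp6v0d2 and Nfatc1, 5 of the fusion receptor Dcstamp and 3 of Mmp9. The same barcode held 130 of the 132 UMIs of Dqx1 and 38 of the 52 UMIs of Atr in E15.5 myeloid barcodes. The next one, with 13646 UMIs, had 11 UMIs of Ctsk, 8 of Nfatc1, 7 of Atp6v0d2, 6 of Acp5 and 1 of Tnfrsf11a.

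Genes of dividing cells were present in many myeloid barcodes. At least 2 of 17 genes of G2 and M phase were found in 13 of 25 (52%, 31.3 to 72.2), 41 of 67 (61.2%, 48.5 to 72.9) and 43 of 94 (45.7%, 35.4 to 56.3) of them and in 35.7, 30.9 and 27.2% of the others. After thinning to 1500 UMIs the shares were 41.2, 43.8 and 44.1% of myeloid and 29.96, 26.8 and 22.4% of other barcodes. In unmixed barcodes Top2a was at 615, 797 and 693 CPM, against 459, 520.0 and 420.1 CPM in the others, and Mki67 at 376, 209 and 189 CPM against 95.3, 133 and 122 CPM. For the 15 S phase genes the thinned shares were 47.1, 18.8 and 27.1% of myeloid and 25.0, 25.4 and 20.2% of other barcodes. These counts of detected genes do not show that a barcode's cell was cycling. Erythroid RNA was in most barcodes of any kind: at least 2 of 9 erythroid genes were found in 92.0%, 88.1% and 87.2% of myeloid and 79.3, 84.1 and 86.4% of other barcodes.

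Between E14.5 and E15.5, over which the palate closes, the number of genes that differed 2-fold between myeloid barcodes depended on the setting. Over all members, 75 of 2528 genes tested were called higher at E15.5 (2.97%) and 89 of 2528 lower (3.52%). Thinning each barcode to 1500 UMIs gave 315 higher and 303 lower, and equal weights gave 140 and 150. Of the genes called over all members, 16 of the 75 and 43 of the 89 had 50% or more of the higher stage's UMIs in 1 barcode. Caly and the pituitary hormone subunit Cga had 188 of 189 and 225 of 226 UMIs at E15.5 in a single mixed barcode with 29072 UMIs, 3 rule genes and all 10 mesenchymal markers, which also held 92 of 93 UMIs of Ank1, all 85 of Gm41611 and 147 of 208 of Plpp3. Gm41611 was lower at E15.5 without mixed barcodes (log2 ratio -5.86), with 4 rule genes (-2.67), after thinning (-0.70) and with equal weights (-0.22). Another mixed barcode held 83 of 114 UMIs of Map3k3, and Nrg1 had 39 of 90 in 1 barcode. Among the genes lower at E15.5, 201 of 214 UMIs of Cntn5, 80 of 98 of Ncam2 and 56 of 90 of Thsd7b at E14.5 were in the barcode with 65518 UMIs, and without the deepest barcodes Cntn5 was higher at E15.5 (log2 ratio 0.98), as it was with 4 rule genes (0.94). Ncam2 was higher with 4 rule genes (0.17) and with equal weights (0.60). Dach1, Fstl5, Map1b and Nnat, genes of neurons and other cells, were also lower, from 413, 229, 238 and 232 CPM to 90.5, 71.4, 76.2 and 76.2 CPM. Map1b was higher at E15.5 without mixed barcodes (log2 ratio 0.68) and with 4 rule genes (0.068). Dqx1 was named above for its single barcode.

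In the unmixed barcodes, 117 of 2416 genes were called higher at E15.5 (4.84%) and 154 of 2416 lower (6.37%). Chemokine and osteoclast-receptor genes were among them. Ccl4, a chemokine, had 5 UMIs in 4 of 43 barcodes at E14.5 and 78 in 10 of 70 at E15.5, 8.63-fold (3.55 to 27.3) higher in CPM, with 25 of the 78 in 1 barcode. Irf1, an interferon-induced factor, had 6 UMIs in 6 barcodes and 51 in 24 barcodes, 56.9 against 268 CPM (ratio interval 2.02 to 13.4). Ccl9 was 3.46-fold (1.19 to 13.7) and Tnfrsf11a 3.23-fold (1.34 to 9.39) higher. Tyrobp was 1.54-fold (1.27 to 1.88) and Pf4 1.63-fold (1.39 to 1.91) higher, both below the 2-fold line. Stfa1 (45 against 4 UMIs, with 25 of the 45 in 1 barcode) and the histone gene Hist1h1b (41 against 6) were also higher. Atr, Ctsk and Cma1 were the other leading genes, mostly from the osteoclast and mast cell barcodes above. Lower at E15.5 was Cd36, at 379 CPM in 11 barcodes at E14.5 and 105 CPM in 10 at E15.5 (ratio 0.277, 0.153 to 0.485). Plin2, a lipid droplet protein, was also lower (ratio 0.402, 0.198 to 0.802). Pik3ap1, a signalling adaptor of immune cells, was at 436 CPM in 22 barcodes and 121 CPM in 16. Lncpint, a long noncoding RNA, Manf, a stress-induced secreted protein, Zcchc9 and Ehd1 were also lower. For Nedd9, 47 of 51 UMIs at E14.5 were in 1 barcode, and for Prdx1, 188 of 322. The 21 tested macrophage genes outside the rule had a median log2 ratio of 0.09 and none was called, beside -0.06 over all genes tested. In all members the same median was 0.61 over 14 tested genes with 1 call, Cd53, beside 0.02 over all genes. Mixed barcodes held 68.6% of the E14.5 UMIs and 54.6% of the E15.5 ones, and the part of this in the higher ratios of all members was not tested.

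**Figure D4:**
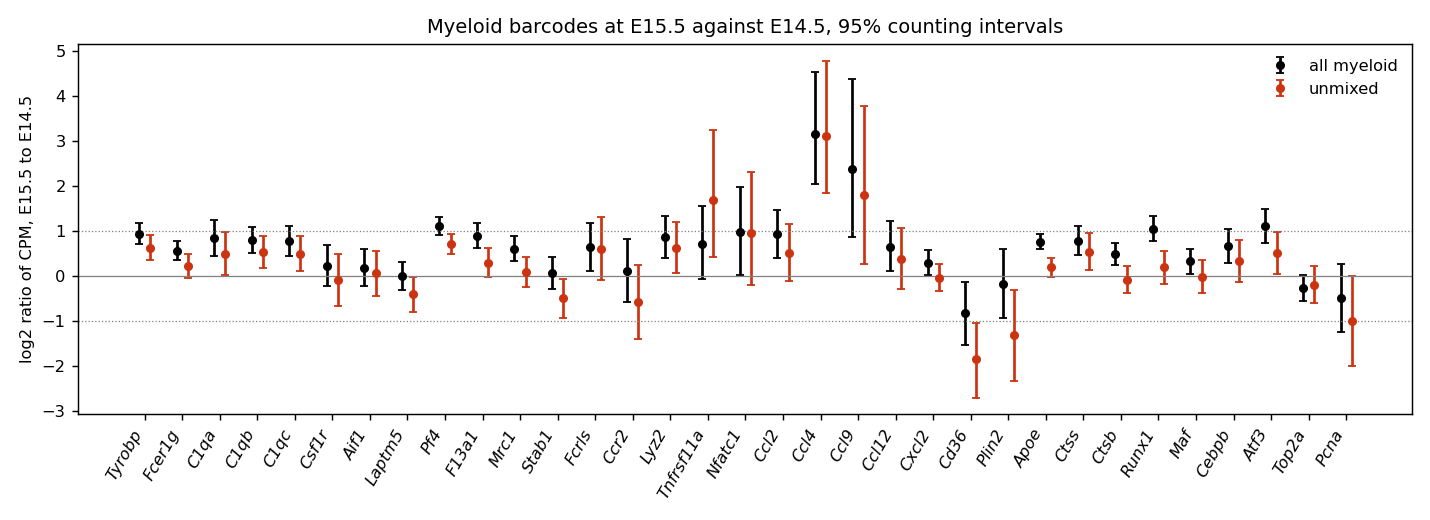
Log2 ratio of CPM at E15.5 to E14.5 for rule genes and genes of the other lists, with 95% counting intervals, in all myeloid barcodes (black) and in the unmixed ones (red); dotted lines mark 2-fold. Ccl4, Ccl9 and Tnfrsf11a lie above the upper line and Cd36 and Plin2 below the lower one in the unmixed barcodes, and for most rule and perivascular-type genes the black points lie above the red ones.

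The step from E13.5 to E14.5 rests on 25 and 67 barcodes, of which 13 and 43 were unmixed. Over all members, 521 of 2752 genes were called higher at E14.5 (18.9%) and 381 of 2752 lower (13.8%). Between E13.5 and E15.5 the counts were 582 of 2782 (20.9%) and 395 of 2782 (14.2%). Of the 10 mesenchymal markers, 6 of 6 tested were called higher over all members, while in the unmixed barcodes none reached 100 CPM. Postn, Ror1 and Aspn had 122, 120 and 77 UMIs at E14.5 and 0 at E13.5, at least 12.7-, 12.5- and 8.03-fold against 3 UMIs of the E13.5 barcodes, with 62 of the Ror1 UMIs in the mixed barcode of 65518 UMIs (lower ends of the exact intervals 10.2, 10.0 and 6.37). Runx2, the osteoblast factor, had 181 against 1. Of the 10 neuronal markers 9 were tested, 7 were called lower and Elavl4 higher. Among other genes of neural cells, Fabp7 had 35 UMIs at E13.5 and 1 at E14.5, Sox2ot 53 and 2, Nrxn3 96 and 15 and Tubb2b 56 and 9. A mixed barcode held 27 of the 35 Fabp7 UMIs, and another 49 of the 96 of Nrxn3. Without mixed barcodes Nrxn3 was higher at E14.5 (log2 ratio 3.39). Klf2, a factor of endothelial and immune cells, had 118 and 23 UMIs, 68 of the former in 1 mixed barcode. In the unmixed barcodes, 563 of 2988 genes were called higher (18.8%) and 673 of 2988 lower (22.5%), and from E13.5 to E15.5 492 of 2896 (17.0%) and 640 of 2896 (22.1%). At 34.1 CPM per UMI, a gene reaches 100 CPM with 3 UMIs at E13.5, and 299 of the 673 lower genes had 50% or more of their E13.5 UMIs in 1 barcode. The largest of them, Tpsb2, Hdc, Cma1, Mecom and Rasef, were each in 1 barcode. The genes highest at E14.5 against E13.5 were S100a6, with 44 UMIs in 11 barcodes against 0, the glycolytic enzyme Ldha with 37 in 22, the ubiquitin ligase Rnf149 with 40 in 19 and the sorting nexin Snx24 with 34 in 14, besides Nedd9. They are at least 4.07-, 3.43-, 3.70- and 3.15-fold against 3 UMIs (lower ends 3.18, 2.65, 2.88 and 2.42). Pf4, F13a1, Mrc1 and Stab1 had ratios of E14.5 to E13.5 of 2.89 (1.82 to 4.83), 3.06 (1.65 to 6.28), 2.48 (1.39 to 4.80) and 3.84 (1.69 to 10.8). The E13.5 side rests on few barcodes: 20 UMIs of Pf4 in 5 barcodes and 13 of Mrc1 in 5. F13a1 had 11 UMIs in 3 barcodes there, 8 of them in 1 barcode. C1qb and C1qc were lower at E14.5, with ratios of 0.463 (0.330 to 0.655) and 0.387 (0.271 to 0.556).

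The last comparison asked which barcodes held RNA of the ligands that macrophage receptors bind. The other barcodes were classed by their markers (at least 3 of a class and more than of any other), which gave 3308 mesenchymal, 2168 neuronal, 286 epithelial, 231 chondrogenic, 103 endothelial, 62 glial and 28 muscle barcodes and left 1735 unassigned. Myeloid levels in this comparison are over all 186 barcodes, mixed ones included, unless the unmixed are named. Levels pool the 3 stages unless a stage is named. The order of the classes differed by stage for several ligands, among them Csf1, Cxcl12, Tgfb1, Tgfb2 and Pros1. Csf1 (ENSMUSG00000014599, chromosome 3:107741048-107760469, minus strand), the growth factor of macrophages, was at 24.3 CPM (21.2 to 27.6) in mesenchymal-marker barcodes, 26.7 CPM (12.2 to 50.6) in endothelial and 17.4 CPM (9.75 to 28.7) in myeloid ones, and at 3.82 CPM (2.58 to 5.45) in neuronal ones. In mesenchymal-marker barcodes it was at 12.2 CPM at E13.5 (6.68 to 20.5), 19.8 a day later (15.2 to 25.4) and 29.7 at E15.5 (25.2 to 34.8), and the E13.5 and E15.5 intervals did not overlap. Il34, the other Csf1r ligand, had 0 UMIs in myeloid barcodes and, with the stages pooled, was under 5 CPM in every class, with 9 UMIs in mesenchymal-marker barcodes. Tnfsf11, the osteoclast signal, was at 5.30 CPM (3.93 to 6.99) in mesenchymal-marker barcodes, 50 UMIs, against 1 UMI in myeloid and 4 in neuronal ones. Cxcl12, which guides cells with Cxcr4, was at 199.7 CPM (191 to 209) in mesenchymal and 159 CPM (109 to 224) in glial barcodes, and at 56.9 CPM (42.1 to 75.2) in myeloid ones, of which the unmixed held 2 of 49 UMIs. By stage it was at 235, 189 and 198 CPM in mesenchymal and 24.3, 108 and 265 CPM in glial barcodes. Tgfb2 was at 277 CPM (184 to 400.3) in muscle, 188 CPM (157 to 223) in chondrogenic, 176 CPM (167 to 184) in mesenchymal and 89.4 CPM (70.6 to 112) in myeloid barcodes, and at 145 CPM (124 to 168) in epithelial ones. In the unmixed myeloid barcodes Tgfb2 was called lower than in the other barcodes at E14.5 and at E15.5. Tgfb1, with the stages pooled, was at 118 CPM (96.6 to 144) in myeloid and 85.9 CPM (57.5 to 123) in endothelial barcodes, with overlapping intervals, and at 11.2 CPM (9.20 to 13.6) in mesenchymal ones. By stage Tgfb1 was at 66.6, 110.1 and 138 CPM in all myeloid and at 125, 116 and 62.3 CPM in endothelial barcodes. Gas6 (128 CPM, 105 to 154) and Ccl2 (183 CPM, 156 to 214) were highest in the myeloid barcodes themselves, with Gas6 at 44.4 CPM (24.9 to 73.3) and Ccl2 at 2.96 CPM (0.0750 to 16.5) in endothelial ones. Ccl7 had 34 UMIs in myeloid barcodes and 1 in all others. Pros1, which like Gas6 binds Mertk, was at 69.4 CPM (38.0 to 117) in glial, 50.8 CPM (46.3 to 55.5) in mesenchymal, 41.5 CPM (22.7 to 69.6) in endothelial and 39.5 CPM (27.3 to 55.2) in myeloid barcodes, with overlapping intervals, and 12 of the 14 glial UMIs were from E15.5. Among the receptors, unmixed barcodes held Tgfbr1 at 137, 180.3 and 309.7 CPM, Ifngr1 at 102, 209 and 278 CPM, Cx3cr1 at 68.3, 180.3 and 231 CPM and Cxcr4 at 0, 85.4 and 31.5 CPM.

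**Figure D5:**
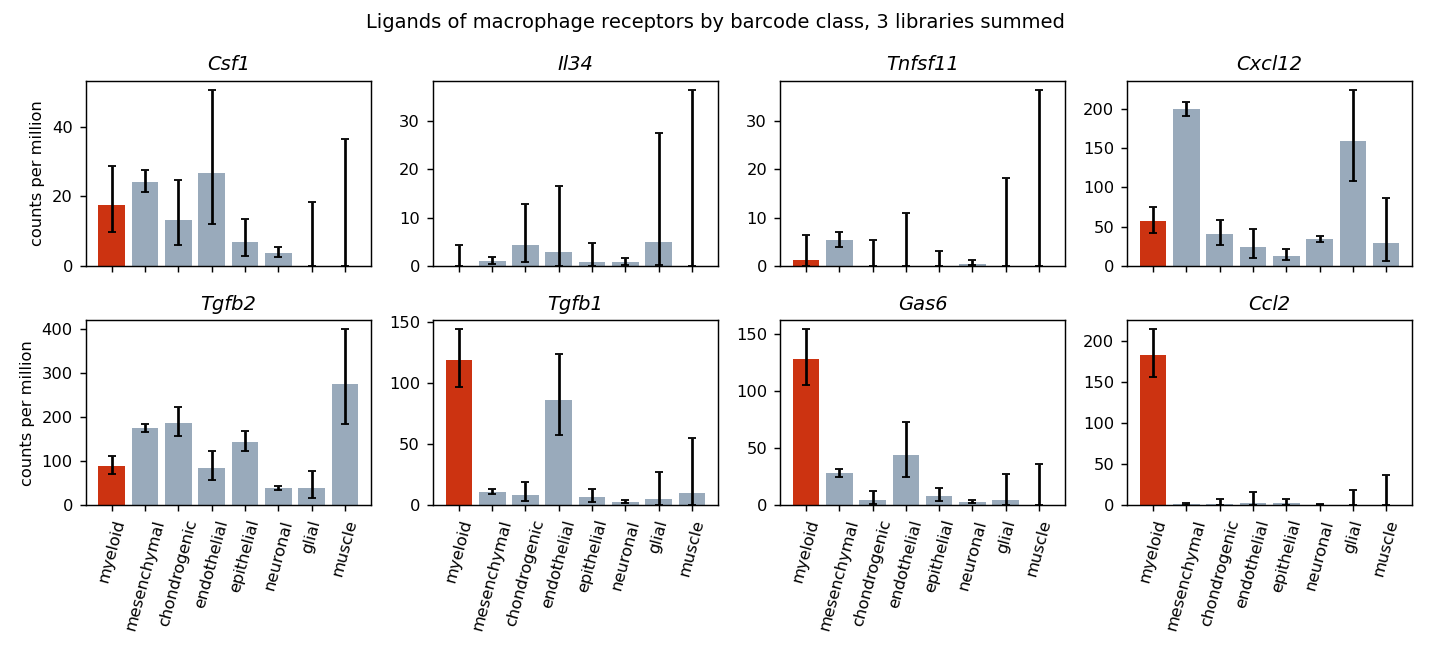
CPM of 8 ligand genes, 1 panel each with its own scale from 0, in all 186 myeloid barcodes (red) and 7 other marker classes (grey), summed over the 3 libraries, with 95% Poisson intervals. In these sums, whose order differs by stage for several genes, Csf1 is highest in endothelial and mesenchymal-marker barcodes with overlapping intervals. Tnfsf11 is highest in mesenchymal ones and Cxcl12 in mesenchymal and glial ones. Tgfb2 is highest in muscle ones, whose interval overlaps the chondrogenic one. Gas6 and Ccl2 are highest in myeloid ones, and Tgfb1 in myeloid and endothelial ones with overlapping intervals.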

How the data were processed

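RNA of dissociated palatal shelf cells was counted with 10x Genomics droplets in 3 libraries of wild-type embryos. The deposited values are raw UMI counts of 32285 genes per barcode, made by the authors against mm10, per the submitters' processing notes, and the file headers name Cell Ranger 6.1.2. Barcodes with at least 500 genes were kept and their UMIs summed per group with Python 3.11.15, numpy 2.4.6, scipy 1.17.1 and pandas 2.3.3. The scripts were tested on simulated data. Levels are CPM of these sums. A gene was called at 2-fold (1 CPM added) with at least 100 CPM on the higher side. Intervals are exact Poisson for levels, exact Clopper-Pearson for shares and exact binomial conditional on the total for ratios, all at 95%. A fold against a 0 is a bound against 3 counts. They cover counting error only. Depth per library and group is given with the results.

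The members, the 34 gene lists and the comparisons were chosen with earlier results of these data known. Genes were named by rule: the 8 rule genes, Spi1, Csf1 and Il34, then in each list the 4 highest and the 2 largest and 2 smallest ratios of E15.5 to E14.5 (at least 50 CPM). To these came the 15 largest ratios to other barcodes, and the 8 and 8 extremes of E15.5 against E14.5 and 5 and 5 of E14.5 against E13.5 (at least 200 CPM). Not every gene the rule gives is printed. Other named genes, and the division by perivascular and monocyte lists, were chosen after values were seen. Doublets were kept: scrublet (scanpy 1.11.5) called 0, 4 and 1 barcodes, too few to count as a working call. As an alternative, the 125, 30 and 66 highest scores (0.8% per 1000 barcodes) were left out, of which 1, 5 and 6 were myeloid and all of these mixed. Other alternatives changed the rule to 2 or 4 genes, the gene minimum per barcode to 1000, the CPM added to 5, the CPM minimum, the scaling, the weighting and the depth, and left out mixed barcodes. Promoter sequences are from RefSeq on GRCm38.p6. A UMI of a gene in a droplet may come from free RNA, so shares are given with those in the other barcodes. No replicate existed, so no p-value was computed. Some genes that the rule names are not reported here.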

Additional observations from a re-analysis of the deposited data

How the results depend on the processing

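Counts of genes past 2-fold moved with several settings. At least 50 CPM gave 537 higher and 742 lower for myeloid over other at E13.5, 476 higher and 238 lower for myeloid over other at E14.5, 663 higher and 604 lower for myeloid over other at E15.5, 220 higher and 265 lower for E15.5 over E14.5, 1127 higher and 737 lower for E14.5 over E13.5, 1162 higher and 741 lower for E15.5 over E13.5. At least 200 CPM gave 120 higher and 143 lower for myeloid over other at E13.5, 107 higher and 32 lower for myeloid over other at E14.5, 186 higher and 138 lower for myeloid over other at E15.5, 28 higher and 25 lower for E15.5 over E14.5, 213 higher and 152 lower for E14.5 over E13.5, 261 higher and 157 lower for E15.5 over E13.5. Leaving out the mixed barcodes gave 979 higher and 870 lower for myeloid over other at E13.5, 803 higher and 758 lower for myeloid over other at E14.5, 753 higher and 771 lower for myeloid over other at E15.5, 117 higher and 154 lower for E15.5 over E14.5, 673 lower for E14.5 over E13.5, 640 lower for E15.5 over E13.5. Thinning to 1500 UMIs gave 679 higher and 617 lower for myeloid over other at E13.5, 600 higher and 572 lower for myeloid over other at E14.5, 689 higher and 670 lower for myeloid over other at E15.5, 315 higher and 303 lower for E15.5 over E14.5, 723 lower for E14.5 over E13.5, 752 lower for E15.5 over E13.5. Weighting each barcode equally gave 495 higher and 565 lower for myeloid over other at E13.5, 587 higher and 597 lower for myeloid over other at E14.5, 662 higher and 664 lower for myeloid over other at E15.5, 140 higher and 150 lower for E15.5 over E14.5. Requiring 2 rule genes gave 37 higher and 26 lower for myeloid over other at E13.5, 33 lower for myeloid over other at E14.5, 115 higher for E15.5 over E14.5, and requiring 4 gave 386 higher and 436 lower for myeloid over other at E14.5, 163 higher for E15.5 over E14.5. Without the deepest barcodes, an alternative chosen after seeing the data, there were 339 lower for myeloid over other at E14.5, 513 lower for myeloid over other at E15.5. The myeloid share became 4.90% (E14.5) and 4.47% (E15.5) with 2 rule genes, 2.42% (E14.5) and 2.58% (E15.5) with 4, 0.353% (E13.5) and 2.46% (E14.5) and 2.68% (E15.5) without mixed barcodes, and 2.71% (E15.5) after thinning. Against 2 denominators chosen after seeing the data it was 1.37% at E13.5 (no neuronal-marker barcodes) and 6.05% (E13.5) and 5.57% (E14.5) and 5.01% (E15.5) (with mesenchymal-marker barcodes alone). The perivascular-list share became 49.3% (E14.5) and 47.9% (E15.5) with 3 genes of the list, 81.4% (E14.5) and 69.1% (E15.5) with 4 rule genes and 47.9% (E14.5) after thinning. Some log2 ratios of E15.5 to E14.5 changed sign. Gm41611 came to -2.67 with 4 rule genes, -0.22 with equal weights, -5.86 without mixed barcodes and -0.70 after thinning. Cntn5 came to 0.94 with 4 rule genes and 0.98 without the deepest barcodes, Map1b to 0.068 with 4 rule genes and 0.68 without mixed barcodes, and Ncam2 to 0.17 with 4 rule genes and 0.60 with equal weights. For E14.5 to E13.5, Nrxn3 came to 3.39 without mixed barcodes. The Cd74 ratio of perivascular-list to monocyte-list barcodes was 5.08 at E14.5 alone. By construction these settings change which barcodes, UMIs or genes enter or, for equal weights, how much each barcode counts, and any other cause was not tested. Of the remaining values, 132 shares, levels and counts stayed within counting error or 1.5 times. Among ratios of named genes, shares of the other lists and levels of Tnfsf11 and Cxcl12, 1791 did so and 292 moved. A change of sign was counted only for ratios of at least 2-fold as reported. Some of the 1791 and 292 may therefore have changed sign. Centring on the median ratio shifted all genes by -0.12 (log2) for E14.5 over E13.5 and by -0.10 for E15.5 over E13.5. No paired analysis was possible because each stage was 1 library and no test was made. Depth limits the E13.5 values most, where 3 UMIs of the 13 unmixed barcodes equal 102 CPM.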
